A study of Equus caballus with 15 samples.

Results

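The TNF and lymphotoxin family was taken as 10 genes named by symbol, namely the ligands TNF, LTA, LTB, TNFSF10, TNFSF13, TNFSF13B, TNFSF14 and TNFSF15 and the receptors TNFRSF1A and TNFRSF1B. A row under its own symbol was found for 9 of these 10 genes among the 16932 genes listed, and TNFSF13 was not analysed here. Of the 9 genes, 8 had a mean of at least 1 CPM (counts scaled to the total of reads on genes) over all libraries and entered the test, which covered 11628 genes in all. TNFSF15 fell below that level.

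TNF is made as a membrane protein that is cut off the cell by the protease ADAM17, and macrophages are a main source of it. Its soluble form acts mostly through TNFRSF1A, which most cells carry, while TNFRSF1B is found mainly on leukocytes and binds the membrane form best. Lymphotoxin alpha (LTA) binds the same receptors as a secreted trimer and joins lymphotoxin beta (LTB) on the cell surface to bind another receptor, LTBR. In the joint, TNF and IL-1ß are the cytokines best known for driving cartilage breakdown in osteoarthritis.

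Macrophages were grown from blood mononuclear cells of 2 horses with 30 ng/ml human M-CSF over 5 days, and 5 conditions were sequenced as polyadenylated RNA, 3 libraries for each. Every sample title begins with Mc1, and the titles do not say whether cells of both horses were sequenced. The untreated macrophages received no cytokine. The IL-1ß group received 10 ng/ml IL-1ß alone, and the 3 other groups received the same IL-1ß together with an orthobiologic therapy (OT) as 25% of the medium. The OTs were conditioned medium of bone marrow mesenchymal stromal cells (MSC-CM), lysed platelet rich plasma (PRP lysate) and ACS, an autologous conditioned serum. Each OT was prepared from 3 donor horses, so its libraries replicate the product, whereas the IL-1ß and untreated libraries are described in the study as technical replicates of the macrophages. The p-values therefore measure the spread between these libraries. The methods name the same 3 horses as donors for all OTs, so the OT groups share donors. The main model does not pair the libraries of these groups by donor. Exposure lasted 24 h, followed by washing and, by the methods, 24 h of further culture, while the sample descriptions have the cells collected right after the wash.

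The libraries held 28410735 to 47894069 reads on genes. IL-1ß replicate 3 and PRP lysate replicate 1 stood apart from the rest on the first principal component, with scores of -103 and -51.7 against -20.7 to 26.6 in the other 13 libraries. Of the macrophage markers, CD68 was at 1340 to 2157 CPM, MRC1 at 515 to 3394, SPI1 at 368 to 798 and CSF1R at 94.3 to 539 CPM over the libraries. CD14 and ITGAM did not reach 5 CPM in any library, and MARCO did not exceed 6.44 CPM. T cell transcripts were also present, with a summed level of 8 detected markers of 669 to 1752 CPM, although IL7R had 1 read in 1 library and 0 in the rest. The rows of CD14 and IL7R each join more than 1 gene identifier, and what this did to their counts was not tested. Summed platelet, neutrophil and stromal cell markers did not exceed 20.2 CPM in any library.

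TNF and LTA were higher with PRP lysate and with ACS than with IL-1ß alone or with MSC-CM. A gene was called when its limma p-value, adjusted by Benjamini-Hochberg over all genes tested, did not exceed 0.05 and its level changed at least 2-fold. Against IL-1ß alone, 2 of the 8 members tested rose with PRP lysate, where 3.09% of all genes were called and 1.07% were higher. With ACS 2 of 8 rose, where 2.21% of all genes were called and 1.23% were higher. The members were TNF and LTA in both comparisons, which share the IL-1ß libraries. The same pair was higher with PRP lysate than with MSC-CM (2.61% of all genes called, 0.8% higher) and higher with ACS than with MSC-CM (1.23% called, 0.593% higher). No member fell in any of the 7 comparisons with all 15 libraries in the limma model.

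No member was called by limma for MSC-CM against IL-1ß, where 0% of all genes were called, or for IL-1ß against untreated macrophages (0.292% called) or for ACS against PRP lysate (0.0946% called). edgeR and DESeq2 on the recovered reads also called 0 members in these 3 comparisons. Over all genes, in the same order, edgeR called 0, 27 and 11 and DESeq2 called 2, 173 and 61. With the unadjusted limma p-value in place of the adjusted one and the same fold limit, 0 members passed for MSC-CM against IL-1ß (0.361% of all genes), 1 for IL-1ß against untreated macrophages (1.57%) and 0 for ACS against PRP lysate (0.826%). The groups did not overlap in 2 of 8 members for IL-1ß against untreated macrophages (16.2% of all genes), 2 for MSC-CM (8.79%), 4 for PRP lysate (15%) and 3 for ACS (26.2%) against IL-1ß. They did not overlap in 4 members for PRP lysate against MSC-CM (19.4%), 2 for ACS against MSC-CM (35.1%) and 4 for ACS against PRP lysate (15.6%).

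**Figure D1:**
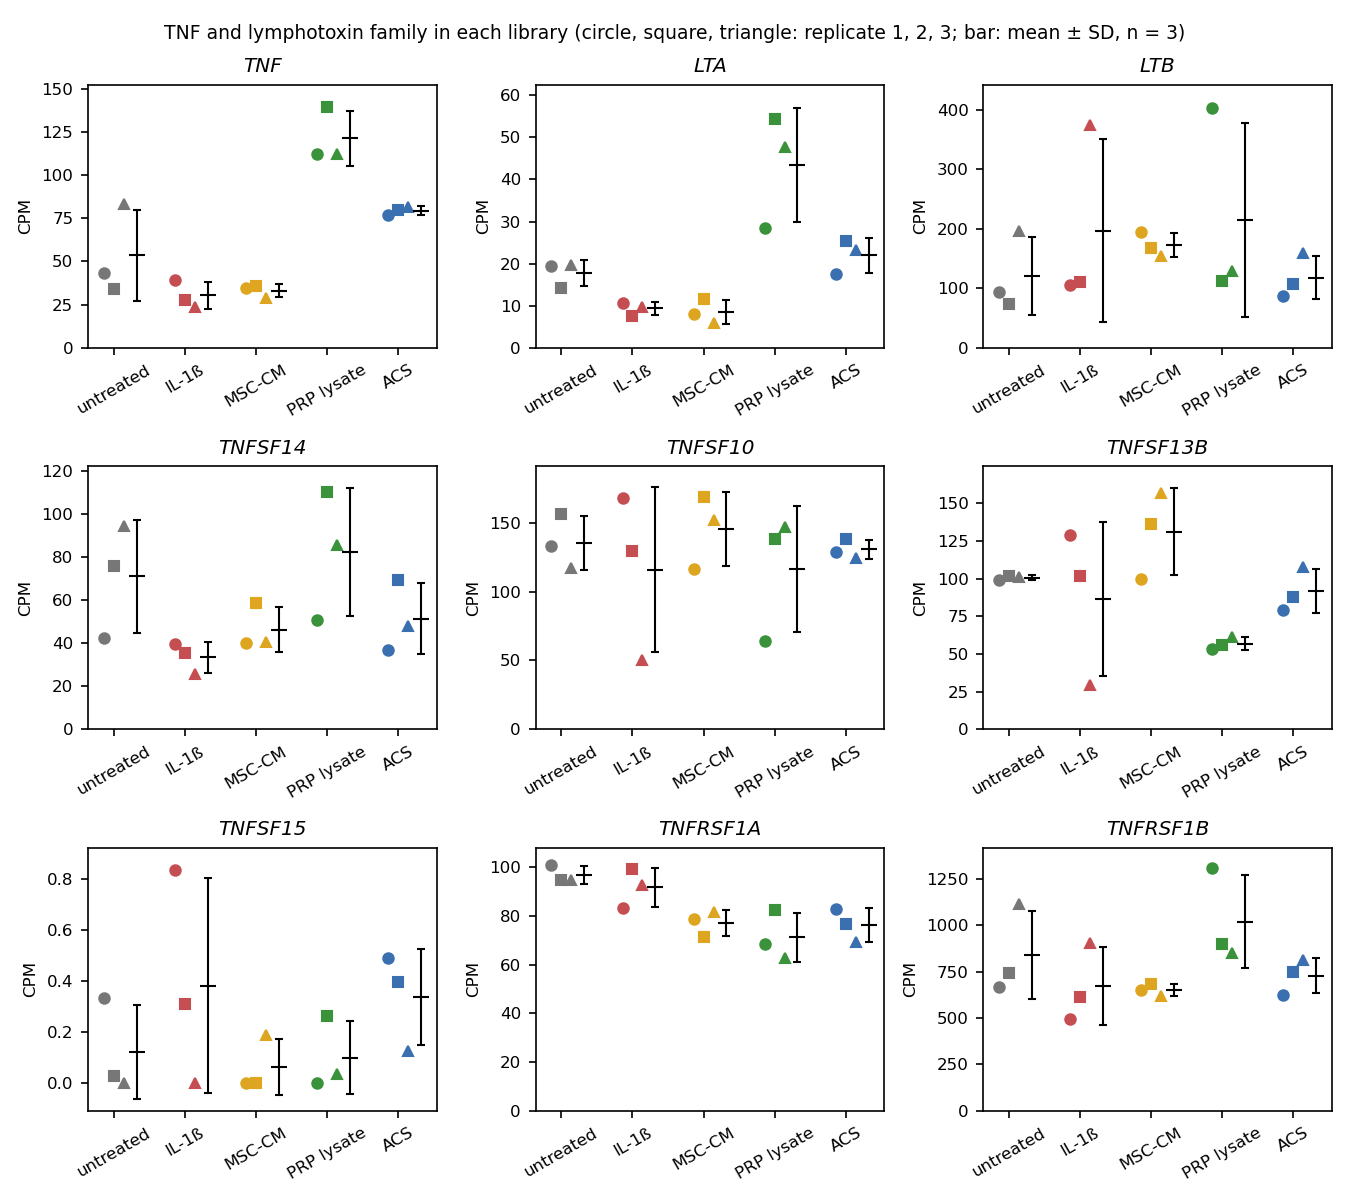
Level of 9 family members in CPM (vertical axis, linear, a separate scale per gene) in the 15 libraries by condition. Points are libraries and bars are mean ± SD over 3 libraries. TNF and LTA are higher in all PRP lysate and ACS libraries than in all IL-1ß and MSC-CM libraries, and LTB is highest in IL-1ß replicate 3 and PRP lysate replicate 1.

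TNF (ENSECAG00000001174, chromosome 20, 32223512 to 32225424 in EquCab3.0) is the founding ligand of the family. It was at 39.4, 27.7 and 23.9 CPM in the IL-1ß libraries and at 43.2, 34.1 and 83.6 CPM in the untreated ones. With MSC-CM it was at 34.4, 36.1 and 28.8 CPM. These 3 groups overlapped one another. PRP lysate gave 112, 139 and 112 CPM and ACS gave 76.8, 80.1 and 81.5 CPM, so that every PRP lysate library lay above every other library, and every ACS library above every IL-1ß and MSC-CM library.

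Relative to IL-1ß alone, TNF rose with PRP lysate by 1.99 on the log2(CPM + 1) scale (SE 0.270, limma adjusted p = 0.00080), from 30.3 ± 8.07 CPM to 121 ± 15.7 CPM (SD, n = 3), a ratio of means of 4.0. Its rise with ACS was 1.39 (limma adjusted p = 0.0147), to 79.5 CPM or 2.62 times the IL-1ß mean. The PRP lysate call held without any 1 library. The ACS call was lost without IL-1ß replicate 2 (limma adjusted p = 0.0541), ACS replicate 2 (0.0681) or ACS replicate 3 (0.0615), and in a fit of these groups alone, with log2 fold changes of 1.34 to 1.39.

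With conditioned medium of stromal cells TNF was at 33.1 ± 3.78 CPM (SD, n = 3), and the difference from IL-1ß alone was 0.15 on the log2 scale, with a 95% confidence interval of -0.44 to 0.73 (limma adjusted p = 0.849). TNF was higher by 1.84 with PRP lysate than with MSC-CM (limma adjusted p = 0.00166) and by 1.24 with ACS than with MSC-CM (limma adjusted p = 0.0345). The latter call was lost when any 1 of the 6 libraries was left out, with limma adjusted p-values of 0.077 to 0.172 and log2 fold changes of 1.15 to 1.31. Between ACS and PRP lysate the difference of -0.60 (95% confidence interval -1.18 to -0.01) did not pass (limma adjusted p = 0.842), although the libraries did not overlap.

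IL-1ß alone did not move TNF past the test. The difference from untreated macrophages was -0.73 on the log2 scale, with a 95% confidence interval of -1.31 to -0.14 (limma adjusted p = 0.279), and untreated replicate 3 was the highest of the 6 libraries. Compared with untreated macrophages, which had no IL-1ß, TNF rose by 1.26 with PRP lysate (limma adjusted p = 0.0246), where 1.6% of all genes were called and 0.267% were higher. That call was lost without untreated replicate 1 or 2 and without any 1 PRP lysate library (limma adjusted p-values of 0.0575 to 0.134), and in a fit of these groups alone (0.186). For ACS against untreated macrophages the log2 difference was 0.66 (limma adjusted p = 0.531).

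LTA (ENSECAG00000000967, chromosome 20, 32220500 to 32221445), the secreted lymphotoxin, followed the same order of conditions as TNF at the top. It was at 10.7, 7.66 and 9.65 CPM with IL-1ß and at 8.13, 11.5 and 5.80 CPM with MSC-CM, which overlapped. Untreated macrophages had 19.4, 14.2 and 19.7 CPM. The PRP lysate libraries had 28.4, 54.5 and 47.7 CPM and the ACS libraries 17.4, 25.3 and 23.1 CPM. All PRP lysate libraries were above all others, with replicate 1 the lowest of the 3, while the ACS and untreated libraries overlapped.

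LTA rose with PRP lysate by 2.07 on the log2 scale relative to IL-1ß (SE 0.276, limma adjusted p = 0.000705), and with ACS by 1.15 (limma adjusted p = 0.0377). The means were 9.34 CPM with IL-1ß, 43.5 CPM with PRP lysate and 22.0 CPM with ACS, ratios of 4.66 and 2.35. Relative to MSC-CM, it was higher by 2.22 with PRP lysate (limma adjusted p = 0.000572) and by 1.31 with ACS (limma adjusted p = 0.0299). Both calls for PRP lysate held without any 1 library. A fit of the PRP lysate and IL-1ß libraries alone gave limma adjusted p = 0.0608.

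The call of LTA with ACS was lost when most single libraries were left out. Against IL-1ß it was kept only without IL-1ß replicate 1, and without another library the limma adjusted p-value was 0.122 (IL-1ß replicate 2), 0.0714 (IL-1ß replicate 3), 0.06 (ACS replicate 1), 0.175 (ACS replicate 2) and 0.146 (ACS replicate 3). It was also lost with TMM scaling (0.0506), RLE scaling (0.0554), edgeR (0.0621), no filter on low values (0.0555) and the ACS and IL-1ß libraries alone (0.122), and kept with DESeq2 (0.00949). Against MSC-CM it was kept only without MSC-CM replicate 2, and otherwise lay between 0.0548 and 0.166.

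In untreated macrophages LTA was higher than in every IL-1ß library, and the difference of -0.86 for IL-1ß (95% confidence interval -1.45 to -0.26) did not pass the test (limma adjusted p = 0.215). MSC-CM libraries lay below the untreated ones without overlap, with a log2 difference of -1.02 (limma adjusted p = 0.0808). This comparison passed with DESeq2 on the recovered reads (adjusted p = 0.00416) and in a limma fit of these groups alone (adjusted p = 0.0387). PRP lysate exceeded untreated macrophages by 1.21 (limma adjusted p = 0.0351), a call that was lost without any 1 untreated library or without PRP lysate replicate 2 or 3 (limma adjusted p-values of 0.0616 to 0.173), without the filter on low values (0.0564) and in a fit of these groups alone (0.136).

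T cells and NK cells are also sources of LTA and TNF, so their markers are given here. The 8 T cell markers tested summed to 875 to 1752 CPM with PRP lysate, 795 to 998 CPM with ACS and 907 to 1707 CPM with IL-1ß, and 0 of 8 were called in either comparison. With MSC-CM they summed to 1265 to 1343 CPM, and 7 of 8 were lower in all ACS than in all MSC-CM libraries, with 0 of 8 called by limma, in a comparison where 35.1% of all genes did not overlap and TNF and LTA were higher with ACS. The 6 NK cell markers summed to 359 to 811 CPM with PRP lysate, 288 to 431 CPM with ACS and 253 to 519 CPM with IL-1ß, with 0 of 6 called against IL-1ß. GZMA, a protease of NK and cytotoxic T cells in that list, was at 184, 127 and 165 CPM with PRP lysate, 97.4, 91.7 and 127 CPM with ACS, 66.7, 78.8 and 108 CPM with IL-1ß and 87.1, 50.1 and 74.2 CPM in untreated macrophages. Its PRP lysate libraries lay above all IL-1ß, MSC-CM and untreated ones, with log2 differences of 0.91 from IL-1ß (limma adjusted p = 0.0374) and 0.98 from MSC-CM (0.0282), both under the fold limit. Against untreated macrophages GZMA rose by 1.18 with PRP lysate (limma adjusted p = 0.0155), the 1 NK cell marker of 6 called in a comparison where TNF and LTA were called too. NCR1, a receptor in the same list, went the other way and was not called. It was at 0.752, 1.91 and 2.53 CPM with PRP lysate. All MSC-CM (4.17, 4.24 and 6.83 CPM) and untreated libraries (5.72, 4.20 and 2.77 CPM) lay above these. Of the 9 macrophage markers tested, CD163, a scavenger receptor, fell by 5.50 with PRP lysate and fell by 3.12 with ACS on the log2 scale (limma). MARCO, another scavenger receptor, fell by 1.43 with PRP lysate, a call lost under 9 of 15 alternatives. Of the 4 dendritic cell markers tested, FLT3, a growth factor receptor, fell by 1.52 with PRP lysate relative to IL-1ß (limma adjusted p = 0.000718) and fell by 1.27 relative to MSC-CM (limma adjusted p = 0.00301), to a mean of 0.951 CPM. The 6 dendritic cell markers listed summed to 212 to 360 CPM with PRP lysate, 216 to 388 CPM with ACS and 226 to 268 CPM with IL-1ß, with CLEC9A and XCR1 under 1 CPM in each. Summed macrophage markers were at 2552 to 4593 CPM with PRP lysate, 4095 to 5443 CPM with ACS and 4194 to 6931 CPM with IL-1ß. The part of these cells in the values of TNF and LTA was not tested, and in bulk RNA fewer cells of a type and less RNA per cell cannot be told apart.

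LTB (ENSECAG00000008555, chromosome 20, 32228382 to 32230141), the membrane-bound partner of LTA, did not follow it. It was at 106, 110 and 374 CPM with IL-1ß, 194, 168 and 155 CPM with MSC-CM and 93.0, 74.0 and 196 CPM in untreated macrophages. PRP lysate libraries had 403, 112 and 128 CPM, and ACS libraries had 87.6, 108 and 159 CPM. The highest values were those of IL-1ß replicate 3 and PRP lysate replicate 1, the libraries that stood apart, at 3.45 and 3.35 times the mean of the other libraries of their groups.

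LTB was not called in any comparison. The log2 difference was 0.13 for PRP lysate against IL-1ß (95% confidence interval -1.04 to 1.31) and became -0.45 without PRP lysate replicate 1. For ACS against IL-1ß it was -0.51 (95% confidence interval -1.69 to 0.66) and became 0.079 without IL-1ß replicate 3. Its direction thus changed with the library left out. Summed T cell markers were highest in the same libraries, at 1707 CPM in IL-1ß replicate 3 and 1752 CPM in PRP lysate replicate 1, against 669 to 1343 CPM elsewhere, and their part in the LTB values was not tested.

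**Figure D2:**
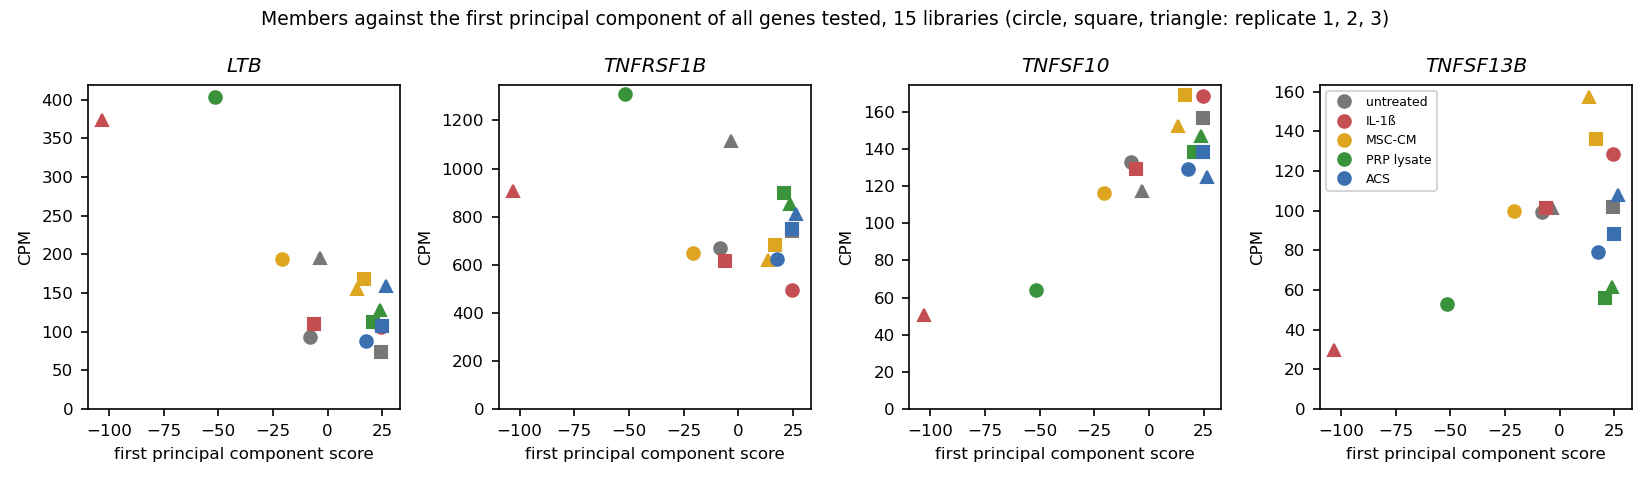
Level in CPM (vertical axis) of LTB, TNFRSF1B, TNFSF10 and TNFSF13B against the first principal component score of the library (horizontal axis, no unit), with 15 libraries per panel. IL-1ß replicate 3, at -103, and PRP lysate replicate 1, at -51.7, lie at the left, where LTB is at 374 and 403 CPM and TNFSF10 at 50.4 and 64.1 CPM.

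LTA, TNF and LTB lie next to one another on chromosome 20, in the region of the major histocompatibility complex. The gap between the annotated genes was 2066 bases from LTA to TNF and 2957 bases from TNF to LTB, within a span of 9642 bases. None of the 9 members overlapped another listed gene. The neighboring genes within 50 kb were chosen after the values of the members were seen. Among them DDX39B, NFKBIL1, LST1, NCR3, PRRC2A and BAG6 were not called with PRP lysate or ACS against IL-1ß. AIF1, which encodes an actin-binding protein of macrophages, fell by 1.37 on the log2 scale with PRP lysate (limma adjusted p = 0.00176) and by 1.10 with ACS (limma adjusted p = 0.0133), opposite in direction to TNF and LTA.

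**Figure D3:**
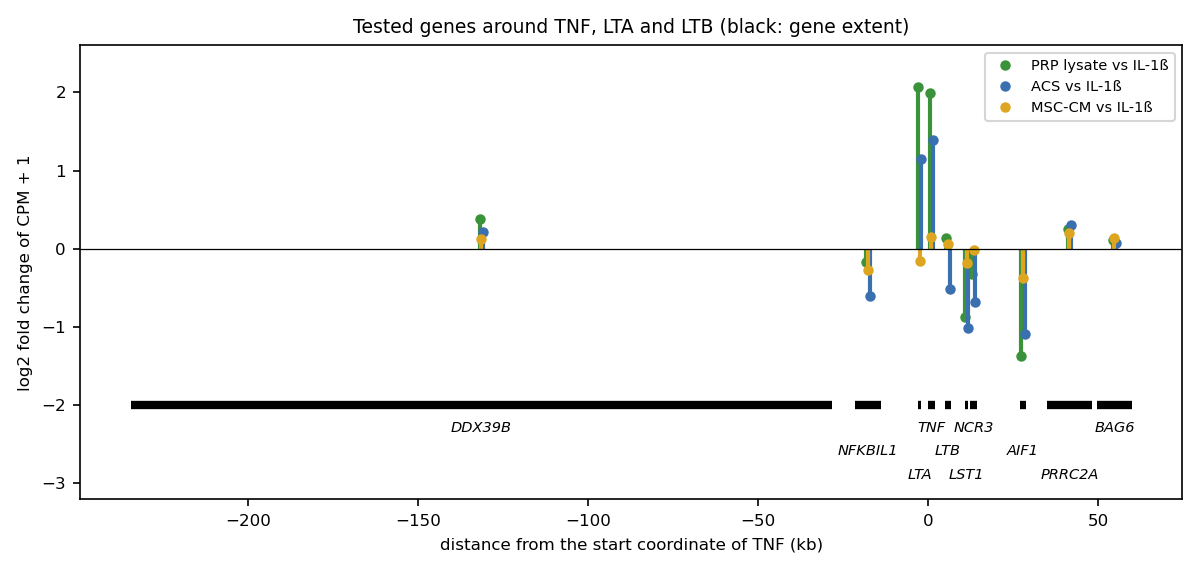
Log2 fold change of CPM + 1 (vertical axis) of the genes tested around TNF, drawn at their distance in kb from the start coordinate of TNF (horizontal axis, black bars for gene extents), for PRP lysate, ACS and MSC-CM against IL-1ß. LTA and TNF stand at 2.07 and 1.99 with PRP lysate and at 1.15 and 1.39 with ACS, while LTB lies at 0.13 and -0.51.

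TNFSF14 (ENSECAG00000017522, chromosome 7, 4655858 to 4658863), also called LIGHT, costimulates T cells and binds LTBR as LTB does. It was at 39.6, 35.2 and 25.5 CPM with IL-1ß, 39.8, 58.5 and 40.4 CPM with MSC-CM and 36.5, 69.1 and 48.1 CPM with ACS. The values were 50.9, 110 and 85.3 CPM with PRP lysate and 42.5, 75.7 and 94.4 CPM in untreated macrophages. Every untreated, MSC-CM and PRP lysate library lay above every IL-1ß library, by a narrow margin for MSC-CM.

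TNFSF14 was higher with PRP lysate than with IL-1ß by 1.22 on the log2 scale (95% confidence interval 0.48 to 1.96), which did not pass with limma (adjusted p = 0.0616) and passed with edgeR (adjusted p = 0.0462) and DESeq2 (adjusted p = 0.00597) on the recovered reads. It also passed without PRP lysate replicate 1 (limma adjusted p = 0.02). The difference of IL-1ß alone from untreated macrophages was -1.01 (95% confidence interval -1.75 to -0.27, limma adjusted p = 0.238). This was the member that passed the fold limit with the unadjusted p-value in that comparison.

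TNFSF13B (ENSECAG00000019758, chromosome 17, 75905944 to 75937779) encodes BAFF, a survival factor for B cells that myeloid cells secrete. Its PRP lysate libraries, at 53.1, 55.9 and 61.6 CPM, lay below all untreated (99.1, 102 and 101 CPM), MSC-CM (100, 136 and 157 CPM) and ACS libraries (79.2, 88.0 and 108 CPM). IL-1ß libraries had 129, 102 and 29.7 CPM, so that replicate 3 was the lowest of all 15 libraries and the other IL-1ß libraries were above PRP lysate.

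For TNFSF13B the log2 difference of PRP lysate from MSC-CM was -1.17 (95% confidence interval -2.01 to -0.32), which was not called with all libraries in the model (limma adjusted p = 0.137). In a fit of these 6 libraries with the replicate number as a block it passed (limma adjusted p = 0.00369), as it did in a fit of them without the block (0.0364), while the block in a model of the 4 numbered groups gave 0.342. With DESeq2 the adjusted p was 0.0155. Against IL-1ß the difference was -0.36 (limma adjusted p = 0.677). Without both libraries that stood apart it was -0.95 with a limma adjusted p of 0.00823, below the fold limit.

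TNFSF10 (ENSECAG00000019391, chromosome 19, 14981945 to 14997837), or TRAIL, can trigger apoptosis through death receptors. IL-1ß replicate 3 had 50.4 CPM and PRP lysate replicate 1 had 64.1 CPM, and it was between 116 and 169 CPM in the other 13 libraries. All group means lay between 116 and 146 CPM, and the limma adjusted p-value was at least 0.559 in each of the 7 comparisons. For PRP lysate against IL-1ß the log2 difference was 0.082 (95% confidence interval -0.75 to 0.91) with both of these libraries and -0.047 without them.

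TNFSF15 (ENSECAG00000014513, chromosome 25, 19928327 to 19946410), or TL1A, was hardly detected, with a mean of 0.200 CPM and 0 to 30 reads per library. It had 0 reads in 5 of the 15 libraries. IL-1ß replicate 1 had the highest value, 0.834 CPM. Exact permutation tests of 3 libraries against 3, two-sided, gave p-values from 0.2 to 1 in the 7 comparisons, where the smallest p-value this design allows is 0.1. With so few libraries no difference could have passed.

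TNFRSF1A (ENSECAG00000016330, chromosome 6, 34913158 to 34924509), the death domain receptor of TNF, varied over a narrow range. It was at 101, 94.5 and 94.5 CPM in untreated macrophages and 83.3, 99.2 and 92.8 CPM with IL-1ß. All libraries with an OT were below all of these, at 78.7, 71.2 and 81.4 CPM with MSC-CM, 68.4, 82.4 and 62.8 CPM with PRP lysate and 82.8, 76.5 and 69.2 CPM with ACS. The log2 differences from IL-1ß were -0.25 for MSC-CM, -0.37 for PRP lysate and -0.27 for ACS, in comparisons that share the IL-1ß libraries. Their limma adjusted p-values were 0.705, 0.141 and 0.254, and the lowest bound of their 95% confidence intervals, that for PRP lysate, was -0.65, short of the fold limit of 2.

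TNFRSF1B (ENSECAG00000012481, chromosome 2, 39737057 to 39770603), the leukocyte receptor of TNF, was at 496, 615 and 906 CPM with IL-1ß and at 668, 741 and 1112 CPM in untreated macrophages. MSC-CM libraries had 650, 683 and 619 CPM, ACS libraries 625, 750 and 810 CPM and PRP lysate libraries 1309, 900 and 851 CPM. The PRP lysate libraries were above all MSC-CM and ACS libraries and overlapped the IL-1ß and untreated ones. The difference of PRP lysate from IL-1ß was 0.62 on the log2 scale (95% confidence interval 0.10 to 1.14) and was not called (limma adjusted p = 0.186). IL-1ß replicate 3 and PRP lysate replicate 1 were at 1.63 and 1.50 times the mean of the other libraries of their groups.

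**Figure D4:**
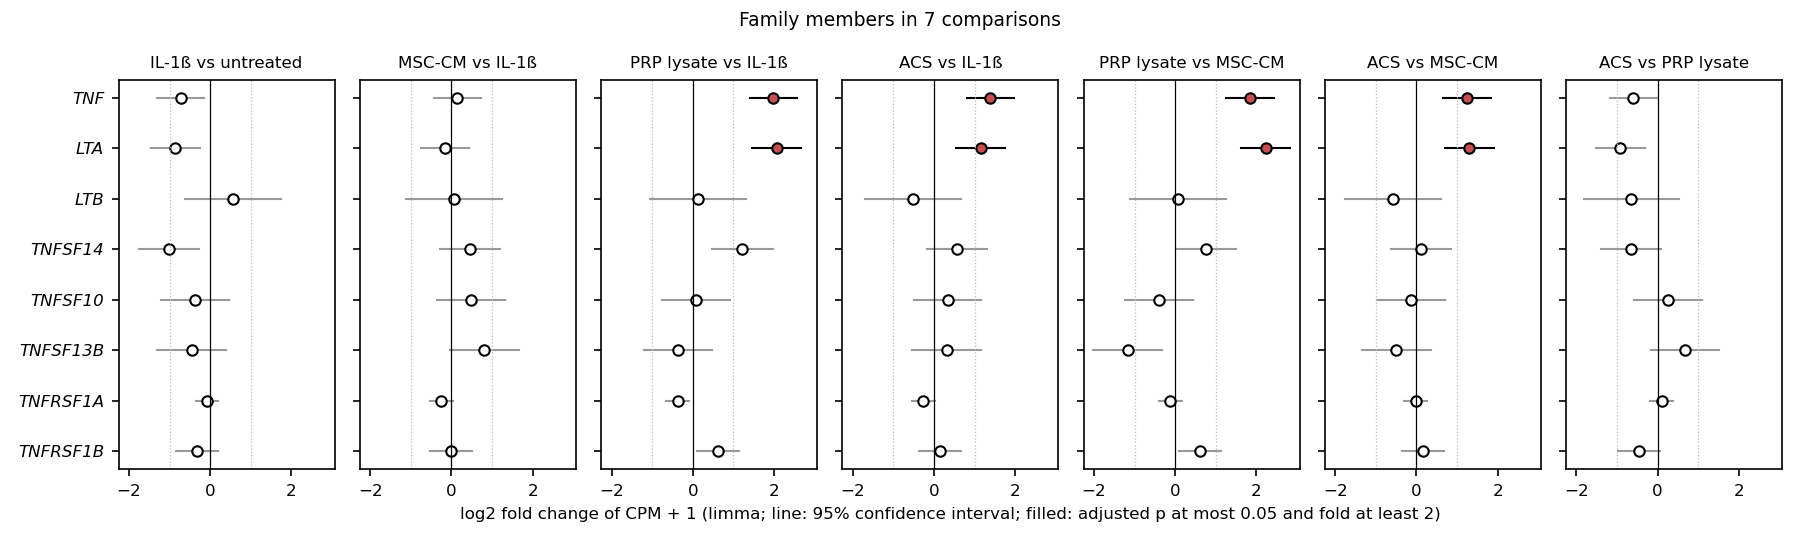
Log2 fold change of CPM + 1 (horizontal axis) of the 8 members tested in 7 comparisons, with 95% confidence intervals from limma. Filled points were called, and these are TNF and LTA with PRP lysate or ACS against IL-1ß or MSC-CM.

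The order of the condition means of TNF was PRP lysate, ACS, untreated, MSC-CM and IL-1ß. LTA had the same order but for MSC-CM, which was lowest. No neighbors in either order differed past the test, although PRP lysate and ACS did not overlap for either gene, nor did untreated and IL-1ß libraries for LTA. Pearson correlations of log2(CPM + 1) over the 15 libraries, which share depth and the libraries that stood apart, are given as a description. TNF and LTA had r = 0.92, TNF and TNFSF14 r = 0.67, TNF and LTB r = -0.0048 and LTA and LTB r = -0.091.

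Among all genes tested, those closest to TNF in pattern over the 15 libraries were ESM1, CISH and GIPR (r = 0.94 each). For LTA they were ESM1 (r = 0.94), CCNH (r = 0.94) and CSF2 (r = 0.93), and CSF2 encodes GM-CSF. LTB was closest to SAFB2, SAFB and DDX39A (r = 0.97 to 0.95) and TNFRSF1B to DUSP2, HLX and NFKBIE (r = 0.97 to 0.92). TNFRSF1A was closest to SQOR, BLVRA and GRN (r = 0.92 to 0.90), TNFSF10 to CANX, TPP1 and OSBPL11 (r = 0.98 each) and TNFSF14 to COQ9, MRM3 and DUSP1 (r = 0.91 to 0.89). The genes closest to TNFSF13B were ENSECAG00000007830, ENSECAG00000013800 and FGL2 (r = 0.96 to 0.93).

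The other genes of the TNF system are given by 6 lists. Of 7 other ligands tested, 0 were called with PRP lysate or ACS against IL-1ß by limma, where 3.09% and 2.21% of all genes were called, and their medians were 0.58 and 0.23 on the log2 scale, against 0.11 and 0.13 over all genes. TNFSF9, the ligand of the costimulatory receptor 4-1BB, was the ligand called elsewhere, at 33.5, 36.0 and 31.9 CPM with PRP lysate and 16.4, 14.2 and 17.3 CPM with MSC-CM. It rose by 1.04 (limma adjusted p = 0.00847), where 0.8% of all genes were higher, and lost the fold limit without MSC-CM replicate 2 or PRP lysate replicate 2, where the adjusted p stayed at 0.043 or below.

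Of 17 other receptors tested, 2 rose with PRP lysate and 1 with ACS against IL-1ß, where 1.07% and 1.23% of all genes were higher, and none fell. CD40, the receptor for the T cell ligand CD40L, was at 79.4, 67.2 and 59.2 CPM with IL-1ß, 158, 190 and 156 CPM with PRP lysate and 218, 205 and 171 CPM with ACS. It rose by 1.29 with PRP lysate (limma adjusted p = 0.00112) and by 1.52 with ACS (limma adjusted p = 0.0011), and MSC-CM libraries, at 75.2, 80.6 and 52.8 CPM, overlapped those with IL-1ß. The PRP lysate call was lost in a fit of the PRP lysate and IL-1ß libraries alone (limma adjusted p = 0.0621). TNFRSF12A, the receptor of TWEAK, rose with PRP lysate by 1.07 (limma adjusted p = 0.00452), from 13.8 to 29.6 CPM, a call lost under another scaling of the libraries or without IL-1ß replicate 1. LTBR, the receptor of the LTA and LTB complex, was not called, at -0.59 with PRP lysate and -0.51 with ACS.

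None of 33 genes of the receptor signaling complex was called by limma in any of the 7 comparisons, nor was any of 9 genes that control TNF mRNA, where 0% to 3.09% of all genes were called. The complex holds adaptors and ubiquitin ligases such as TRADD, TRAF2 and BIRC3, which carry the signal from the receptors to NF-kB. With PRP lysate against IL-1ß its median was 0.26, and its members ranged from -0.49 (MLKL) to 0.89 (TRAF1). With ACS they ranged from -0.62 (RBCK1) to 1.25 (TAB3), with a median of 0.31. The mRNA control genes, among them ZC3H12A and RC3H1, which promote decay of cytokine transcripts, had medians of 0.36 and 0.53. Of the 8 genes for the shedding of TNF, ADAM17 itself was at 0.41 with PRP lysate and 0.67 with ACS and was not called.

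TIMP3, the inhibitor of ADAM17, was the shedding gene called. RHBDF1, whose product takes part in the maturation of ADAM17, was at 0.78 with PRP lysate against IL-1ß (limma adjusted p = 0.0282), under the fold limit. TIMP3 was at 57.5, 65.6 and 91.1 CPM in untreated macrophages and at 31.6, 27.8 and 23.5 CPM with IL-1ß. With MSC-CM it was at 23.4, 29.8 and 31.0 CPM, with PRP lysate at 105, 113 and 67.6 CPM and with ACS at 172, 164 and 159 CPM. IL-1ß and MSC-CM libraries overlapped and lay below all others, and ACS libraries lay above all others.

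TIMP3 rose by 1.72 with PRP lysate (limma adjusted p = 0.000445) and by 2.54 with ACS (limma adjusted p = 7.72e-05) relative to IL-1ß, and fell by 1.32 with IL-1ß relative to untreated macrophages (limma adjusted p = 0.0341). The call for ACS held under all 14 alternatives and that for PRP lysate under 14 of 15. The call for IL-1ß was lost under 7 of 15, among them the omission of any 1 library other than IL-1ß replicate 3, with adjusted p-values up to 0.472.

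**Figure D5:**
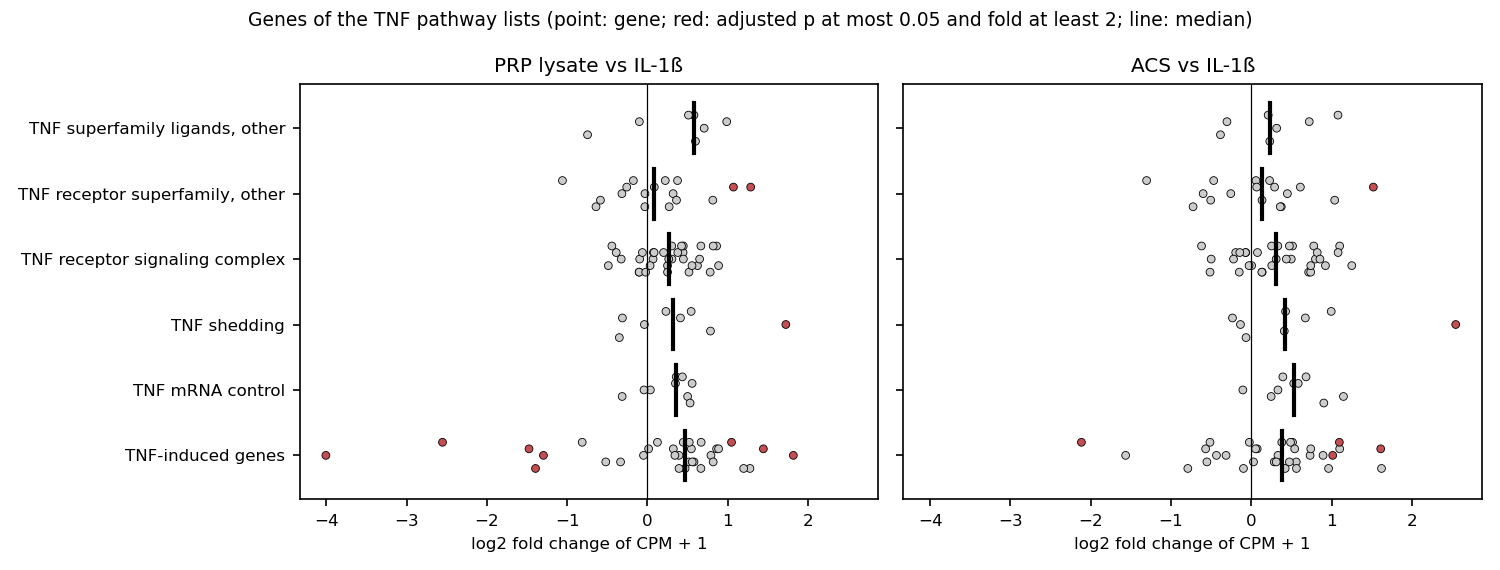
Log2 fold change of CPM + 1 (horizontal axis) of the genes tested in 6 lists of the TNF system, for PRP lysate and ACS against IL-1ß. Points are genes, red points were called by limma, and lines are list medians. TIMP3, at 1.72 and 2.54, is the red point of the shedding list, and VCAM1, at -4.0 with PRP lysate, is the lowest point.

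Genes known to be induced by TNF moved in both directions. Of 33 tested, 3 rose and 5 fell with PRP lysate, and 3 rose and 1 fell with ACS relative to IL-1ß, with medians of 0.47 and 0.38 against 0.11 and 0.13 over all genes. Of all genes, 1.07% were called higher and 2.02% lower with PRP lysate, and 1.23% higher and 0.98% lower with ACS. CSF2, at 21.5, 14.3 and 28.4 CPM with IL-1ß and 60.1, 85.9 and 82.2 CPM with PRP lysate, rose by 1.82 (limma adjusted p = 0.0014). A fit of these groups alone lost this call (limma adjusted p = 0.0828). CSF1, which encodes M-CSF, rose by 1.44 with PRP lysate and by 1.61 with ACS. CD83, a surface protein of activated antigen-presenting cells, rose by 1.05 and 1.10, and ICAM1, an adhesion molecule, rose by 1.01 with ACS. With TMM or RLE scaling, edgeR or DESeq2 the CD83 and ICAM1 changes against IL-1ß were 0.89 to 0.99, just under the fold limit, with adjusted p-values of 0.0214 or below. These calls were also lost without IL-1ß replicate 3 (0.89 to 0.94), and without PRP lysate replicate 1 (CD83), ACS replicate 2 (both genes) or ACS replicate 3 (CD83). A fit of only the groups compared ended them too (limma adjusted p = 0.0557 to 0.113), as a replicate block did for CD83 with PRP lysate (0.0794). CSF1 lost its call with PRP lysate without IL-1ß replicate 3, PRP lysate replicate 2 or PRP lysate replicate 3, without the filter on low values and with a replicate block. With ACS it lost its call without any 1 ACS library. A fit of only the groups compared ended both CSF1 calls.

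The fall was largest for VCAM1, which binds leukocytes to endothelium. It was at 178, 170 and 84.0 CPM with IL-1ß and at 2.20, 16.2 and 10.4 CPM with PRP lysate, a change of -4.0 (limma adjusted p = 0.000985) that became -3.29 without PRP lysate replicate 1. A fit of the PRP lysate and IL-1ß libraries alone lost the call (limma adjusted p = 0.0737). IL6, at 59.8, 46.7 and 40.4 CPM with IL-1ß, was at 1.96, 12.5 and 13.9 CPM with PRP lysate and 17.5, 10.4 and 6.01 CPM with ACS. It fell by 2.55 with PRP lysate (limma adjusted p = 0.0102) and by 2.12 with ACS (limma adjusted p = 0.0376). Without PRP lysate replicate 1, the lowest, the change with PRP lysate was -1.80 and still passed (limma adjusted p = 0.00748). In a fit of the PRP lysate and IL-1ß libraries alone this call was lost (limma adjusted p = 0.220). The ACS call was lost without IL-1ß replicate 2 or 3 or ACS replicate 2 or 3, with a pseudocount of 0.1 and without the filter on low values. It was also lost in a fit of the ACS and IL-1ß libraries alone (limma adjusted p = 0.0900). SOD2, a mitochondrial antioxidant enzyme, fell by 1.48 with PRP lysate, and TNFAIP6 and PLAU fell by 1.39 and 1.30. The SOD2 call was lost with a replicate block (limma adjusted p = 0.0711) and in a fit of the PRP lysate and IL-1ß libraries alone (0.130). The TNFAIP6 call was lost without IL-1ß replicate 2 or PRP lysate replicate 1, with the replicate block and with the PRP lysate and IL-1ß libraries alone. Its limma adjusted p was up to 0.251 over its alternatives. The PLAU call was lost without IL-1ß replicate 1 or 2 or PRP lysate replicate 1 or 2. It was also lost with the replicate block, without the filter on low values and with the PRP lysate and IL-1ß libraries alone.

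With IL-1ß alone, 1 of the 33 genes induced by TNF was called, where 0.292% of all genes were called. The interferon-induced chemokine CXCL10 fell by 1.56 relative to untreated macrophages (limma adjusted p = 0.0495), and this call was lost without any 1 library. With MSC-CM 0 of 33 were called against IL-1ß by limma. Relative to MSC-CM, 4 rose and 3 fell with PRP lysate (0.8% of all genes higher, 1.81% lower), and 4 rose with ACS (0.593% higher). Of the 7 calls with PRP lysate, those of CSF2 and VCAM1 held under all 16 alternatives and that of CXCL8 under 15. The calls were lost under 12 of 16 alternatives for CCL5, 4 each for PLAU and SOD2 and 3 for CD83. A block in the model of the 4 numbered groups ended these 4 (limma adjusted p = 0.0815 to 0.147), and a block in the PRP lysate and MSC-CM libraries alone ended none of the 7. CXCL8, which attracts neutrophils, was at 907, 2874 and 3058 CPM with PRP lysate and 395, 402 and 645 CPM with MSC-CM. It rose by 2.09 (limma adjusted p = 0.00763), and by 1.78 with ACS (limma adjusted p = 0.0361), the latter lost without any 1 library. CSF2 was higher than with MSC-CM by 2.07 with PRP lysate (limma adjusted p = 0.000673), a call kept under all 16 alternatives. With ACS it was higher by 1.15 (limma adjusted p = 0.0469), a call lost under 10 of 13 alternatives, among them the omission of any 1 of the 6 libraries.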

How the data were processed

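The authors trimmed the reads at a Phred score of 20, removed adapters with cutadapt, aligned with STAR 2.7.3 to EquCab3.0, counted per gene with HTSeq in Partek Flow and deposited CPM per gene. Strand use in counting is not given in the sources used here. All 15 columns were matched to samples by name, and 0 were left out. Members and gene lists were chosen with earlier results of these data known.

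The 11628 genes whose mean reached 1 CPM entered limma 3.58.1 (intensity trend) on log2(CPM + 1), all 15 libraries in 1 model of 5 groups, with Benjamini-Hochberg adjustment within each comparison. A gene was called at an adjusted p of at most 0.05 and a fold of at least 2. Fold changes on this scale understate those of genes with few CPM. Reads were recovered from the smallest step of each library, and 100% of values were whole within 0.05 reads or 1e-05 of the value. At the depth of these libraries 1 read was 0.0209 to 0.0352 CPM. Recovered reads served edgeR 4.0.16 and DESeq2 1.42.0 as alternatives. Further alternatives were TMM and RLE scaling, a pseudocount of 0.1, no filter, no fold limit, an unadjusted p-value, the 2 groups alone, a replicate block and each library left out. Two-sided exact permutation tests (SciPy 1.17.1) served TNFSF15. Read recovery was tested on simulated data, as were the limma, edgeR and DESeq2 fits for IL-1ß against untreated macrophages.

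Named genes were all members, up to 4 called genes per list and comparison by size of change, and the 3 genes closest to each member in pattern. Where more are named, as the falls with PRP lysate, they were chosen after their values were seen. Same-numbered MSC-CM and PRP lysate libraries deviated together (r = 0.255 to 0.635 over genes), so these numbers were taken as pairs. Some differently numbered libraries correlated as much (MSC-CM replicate 3 with PRP lysate replicate 2, r = 0.470, and MSC-CM replicate 2 with PRP lysate replicate 3, r = 0.388), so the pairing is weakly based.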

Additional observations from a re-analysis of the deposited data

How the results depend on the processing

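Counts of called members were 2 for PRP lysate against IL-1ß, ACS against IL-1ß, PRP lysate against MSC-CM and ACS against MSC-CM, and 0 for the other 3 comparisons. With an unadjusted p-value the count for IL-1ß against untreated macrophages was 1. With only the groups compared in the fit, it was 1 for PRP lysate and 0 for ACS against IL-1ß. Over all genes these fits called 56 and 48, against 359 and 257 in the main fit. For PRP lysate against IL-1ß it was 3 with edgeR, with DESeq2 and without PRP lysate replicate 1 (TNFSF14 added), and for PRP lysate against MSC-CM 3 with DESeq2 and with only these groups (TNFSF13B added). Over all genes the first 3 fits called 388, 694 and 469, against 359 in the main fit. The others called 488 and 167, against 304. For ACS against IL-1ß it was 1 without the filter, with TMM, with RLE and with edgeR, LTA being lost in each. Over all genes these called 207, 265, 261 and 242, against 257 in the main fit. For ACS against MSC-CM it was 1 without the filter, where 120 genes of all were called against 143 in the main fit. Leaving out 1 library gave 0 to 2 for ACS against IL-1ß and 0 to 1 for ACS against MSC-CM, with 103 to 705 and 53 to 125 of all genes called. Without both libraries that stood apart, an alternative chosen after seeing the data, PRP lysate against MSC-CM had 4. Over all genes that fit called 562, against 304 in the main fit. The 900 alternatives to the 62 results on single members kept direction and side of the threshold in 789, lost a call in 42, gained one in 11 and changed sign in 58. Each change of sign was of a difference that was not called, and the cause was not tested. In the 650 alternatives to 44 results on list genes, 165 lost the call and 0 changed sign.

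With the replicate number as a block across the 4 numbered groups, the calls for TNF and LTA with PRP lysate against untreated macrophages were lost (limma adjusted p = 0.179 and 0.191), while PRP lysate against IL-1ß and against MSC-CM kept 2 calls each, where 197 and 171 of all genes were called. In the other pairs of groups same-numbered libraries had correlations from -0.77 to 0.59, with some negative in each, so these share only a number, and ACS labels carry none. For PRP lysate and MSC-CM alone with the block, the count was 3, where 406 genes of all were called against 304 in the main fit.

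Changes of sign are given as log2 differences. With TMM they were -0.077 (LTB, MSC-CM against IL-1ß), 0.019 (TNFRSF1A, ACS against MSC-CM) and -0.00025 (TNFSF10, PRP lysate against IL-1ß). With RLE the same 3 were -0.11, 0.029 and -0.011, and TNF with MSC-CM against IL-1ß was -0.021. With edgeR, LTB was -0.42 for MSC-CM and -0.020 for PRP lysate against IL-1ß, TNFRSF1A 0.0032 for ACS against MSC-CM, TNFRSF1B -0.043 for ACS and TNFSF10 -0.033 for PRP lysate against IL-1ß. With DESeq2 these 5 were -0.48, -0.044, 0.032, -0.064 and -0.045, and TNF with MSC-CM was -0.031.

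Without both libraries that stood apart, differences from IL-1ß were -0.0050 (TNF), 0.23 (TNFRSF1B) and -0.035 (TNFSF10) with MSC-CM, -0.047 (TNFSF10) with PRP lysate, and 0.079 (LTB), -0.17 (TNFSF10) and -0.33 (TNFSF13B) with ACS. For IL-1ß against untreated macrophages they were -0.030 (LTB), 0.13 (TNFSF10) and 0.18 (TNFSF13B). LTB was -0.51 for PRP lysate against MSC-CM, and TNFSF10 was -0.13 for ACS against PRP lysate.

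Leaving out 1 library in turn gave these ranges. For IL-1ß against untreated macrophages they were -0.030 to 0.97 (LTB), -0.73 to 0.13 (TNFSF10) and -0.86 to 0.18 (TNFSF13B). For MSC-CM against IL-1ß they were -0.0050 to 0.34 (TNF), -0.38 to 0.059 (LTA), -0.25 to 0.66 (LTB), -0.20 to 0.23 (TNFRSF1B) and -0.035 to 0.82 (TNFSF10). For PRP lysate against IL-1ß they were -0.45 to 0.73 (LTB), -0.43 to 0.46 (TNFSF10) and -1.0 to 0.042 (TNFSF13B). For ACS against IL-1ß they were -0.83 to 0.079 (LTB), -0.043 to 0.39 (TNFRSF1B), -0.17 to 0.68 (TNFSF10) and -0.33 to 0.71 (TNFSF13B). LTB was -0.51 to 0.41 for PRP lysate against MSC-CM, TNFRSF1A -0.081 to 0.048 and TNFSF14 -0.12 to 0.33 for ACS against MSC-CM, and TNFSF10 -0.13 to 0.47 for ACS against PRP lysate.

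Over all genes tested the log2 fold changes had medians of 0.16, 0.11 and 0.13 for MSC-CM, PRP lysate and ACS against IL-1ß, and of 0.0049, 0.024 and 0.019 with RLE. TNFSF15 had at most 30 reads in a library.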
